A study of Saccharomyces cerevisiae with 19 samples.

Results

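Sir3 occupancy was followed at the silent mating cassettes HML and HMR of budding yeast chromosome 3, and at CHA1 and VAC17, the first genes met when leaving HML towards the centromere. The members were these 4 loci of 4216 features tested. They were read by the 22 of 41480 chromosomal probes whose midpoints lie inside the HML or HMR cassette or inside the coding region of CHA1 or VAC17. HML held 6 of these probes, HMR 8, CHA1 4 and VAC17 4. Of the 6 genes meant, HMLALPHA1 (YCL066W), HMLALPHA2 (YCL067C) and HMRA2 (YCR096C) had 0 probes in their coding regions and are therefore described only through their cassette. HMRA1 (YCR097W) had 2 probes, CHA1 (YCL064C) 4 and VAC17 (YCL063W) 4. HMRA1 was also tested as a feature of its own. Its 2 probes are among those of HMR, so in the counts of member features below HMR and HMRA1 are not independent.

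The data were 19 two-colour tiling arrays of Sir3 chromatin immunoprecipitation (ChIP-chip) in 11 groups, 8 with 2 arrays and 3 with 1. Precipitated DNA was labelled with Cy5 and whole cell extract with Cy3, and each value below is the log2 ratio of the first over the second minus the median of that array. Thus 0 is the typical probe of an array and 1 is a doubling over it. All cultures grew exponentially in rich medium (YPD), and chromatin was fixed with 0.9% formaldehyde for 15 min and sheared to about 500 bp.

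The groups were as follows. In pADH-SIR3 (yAT2627, 2 arrays), pTEF-SIR3 (yAT2629, 2 arrays) and yAT2554 pGPD-SIR3 (1 array), the promoter of SIR3 was that of ADH, TEF or GPD, HML was replaced by HPH, and the strains carried RAP1-GFP and a repaired ADE2. In yAT1254 pGPD-SIR3 (2 arrays), HML was intact, GPD drove SIR3, and the strain carried GFP-RAP1, repaired ADE2, a ppr1 deletion and a URA3-marked telomere seeded at adh4. The pGPD-sir3-A2Q strain (yAT1256, 2 arrays) had all of these, with a sir3-A2Q point mutant under GPD. A further 2 arrays came from yAT1254 taken 8 h after release from 5 mM nicotinamide (NAM) into fresh YPD, and 2 from yAT3183, which adds dot1::KanMX and was released in the same way. The yAT2476 pGPD-SIR3 strain (1 array) had GFP-RAP1 only. The pGPD-SIR2 pGPD-SIR3 strain (yAT1668, 2 arrays) and the pGPD-SIR2 strain (yAT1667, 1 array) carried RAP1-GFP and ADE2 inserted in the ribosomal DNA. The WT strain (yAT191, 2 arrays) had native SIR3 in the yAT1254 background, so it too carried GFP-RAP1 and the marked telomere. No label gives mating type, and nothing states that replicates came from separate cultures, so p-values measure only how these arrays vary, and that variation may be technical. A lower ratio in a population can mean fewer cells with Sir3 at a locus or less Sir3 in each, and these cannot be told apart.

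HML and HMR hold unexpressed copies of the alpha and a mating-type genes. Sir3 is the histone-binding subunit of the SIR complex, which is recruited at the silencers that flank each cassette, and at telomeres, and which spreads along nucleosomes that Sir2 has deacetylated. Spreading is limited by the amount of Sir3, by Dot1-dependent methylation of histone H3 and by boundary elements, of which a tRNA gene beside HMR is the best studied. CHA1 encodes the catabolic serine and threonine deaminase, and VAC17 the adaptor that carries the vacuole into the bud.

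The labels were checked first. On all 5 arrays labelled as HML-deleted, 4 of the 6 HML probes had no ratio, whereas 5 or 6 of the 6 were measured on each of the 14 arrays with HML intact. HML therefore has no level in pADH-SIR3, pTEF-SIR3 and yAT2554. The dot1 label had no such trace. Of 5 probes inside DOT1, 4 and 5 had a ratio on the 2 arrays labelled dot1, and 4 or 5 on each of the other 17. These arrays are therefore called "labelled dot1" throughout, and whether part of DOT1 remains in that strain was not tested. Across arrays, 97.0 to 99.5% of probes had a ratio, and replicates correlated at 0.734 to 0.975 over probes. The correlation was lowest in pGPD-sir3-A2Q (0.734) and WT (0.744). The median ratio before centring ran from 0.029 on WT replicate 2 to 0.942 on pADH-SIR3 replicate 1, and was 0.098 on WT replicate 1. The internal spread of the array (scaled median absolute deviation of probes over 50 kb from every end) was 0.540 and 0.552 on the labelled dot1 arrays and at most 0.392 on the others.

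**Figure D1:**
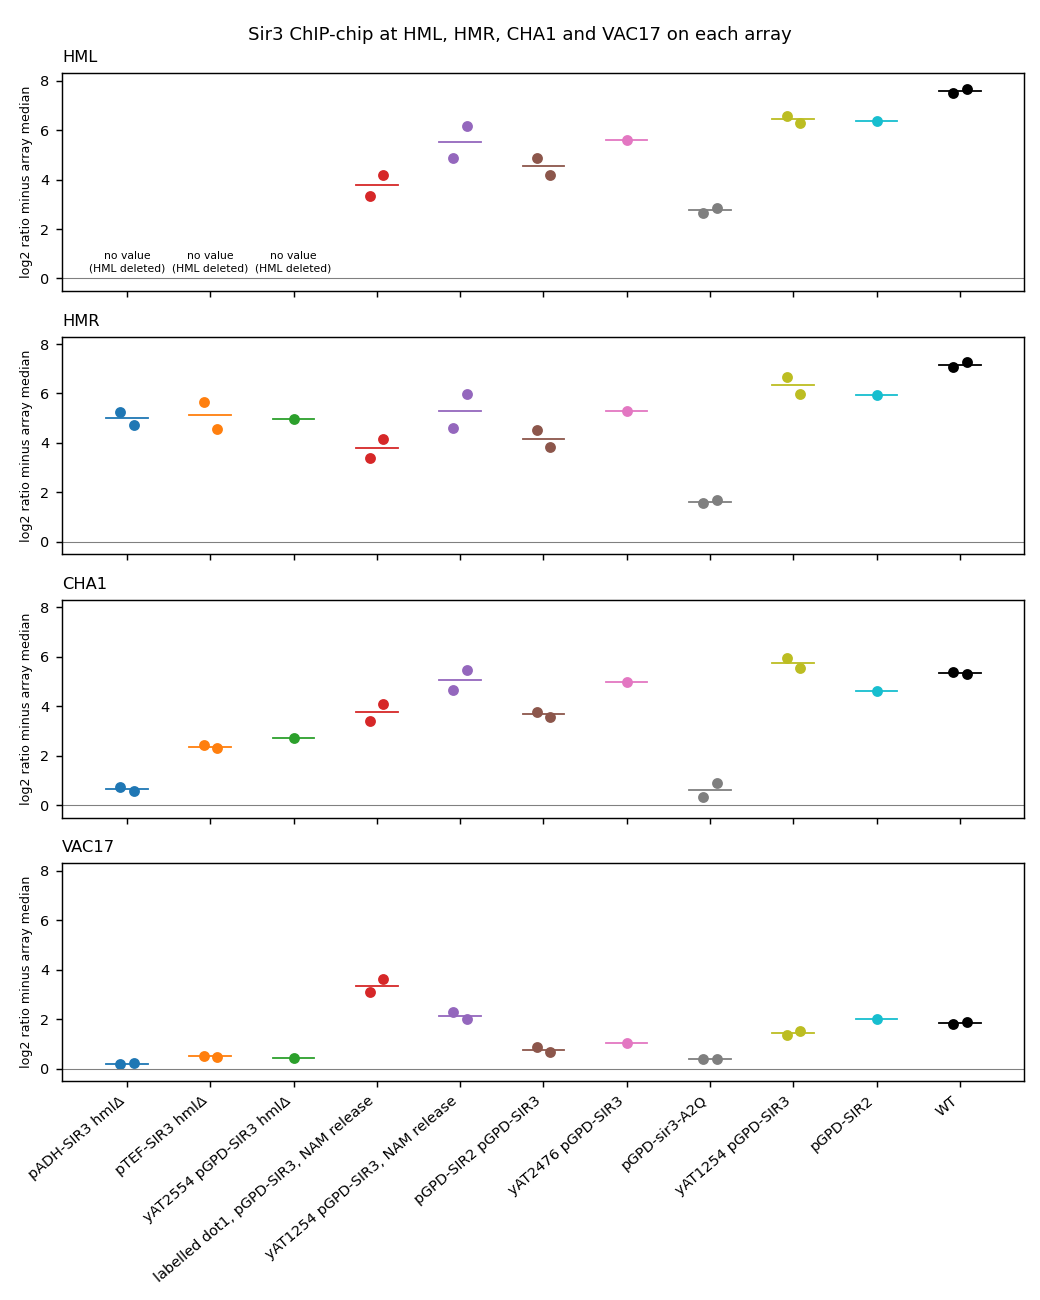
Level of HML, HMR, CHA1 and VAC17 (log2 ratio minus array median) on each of the 19 arrays, 1 panel per locus, with 1 dot per array and a bar at the group mean. HML and HMR are highest in WT and lowest in pGPD-sir3-A2Q, CHA1 is under 1 on the pADH-SIR3 and pGPD-sir3-A2Q arrays, and VAC17 is highest on the labelled dot1 arrays.

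In WT cells both cassettes had Sir3 at a high level. HML stood at 7.50 and 7.67 and HMR at 7.05 and 7.28 on the 2 WT arrays, above 99.97%, 99.95%, 99.93% and 99.90% of the probes of their arrays. CHA1 stood at 5.40 and 5.31, about 2 log2 units under HML on the same array (differences of -2.10 and -2.36). VAC17 stood at 1.81 and 1.86, and its difference from CHA1 on the same array was -3.59 and -3.45. The mean level thus fell from HML to CHA1 to VAC17. It fell within CHA1 too, from 6.119 at its probe nearest HML to 5.065 at the farthest in WT.

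The level fell in steps between CHA1 and the far end of VAC17. In WT the mean level was 4.52 at the probe chr3:16966-17025 and 2.94 at the next one, chr3:17226-17284, both between the coding regions. On 8 of the 14 arrays with HML intact, this step of 1 probe was the steepest fall between neighbouring probes within 5 kb of HML. These 8 include WT replicate 2 (-1.82), but on WT replicate 1 the steepest fall lay past the last VAC17 probe, between the probes at 18286 and 18757 (-1.40). The running mean of 3 probes is placed at the one nearest the cassette, here and below. It dropped under 1 at 3.66 kb from the innermost HML probe on both WT arrays. That position is the last VAC17 probe, which itself had 1.92 and 1.60. The probes after it, past VAC17, averaged 0.60 and 0.37 in WT, so the level passed 1 beyond the VAC17 probes. Probe positions are those of the files, for which no genome build is stated in the sources used here. The median distance between probes was 256.5 bp.

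HMR had a different surrounding. On the 2 WT arrays HMR exceeded GIT1, a glycerophosphoinositol transporter gene on its telomere side, by 4.99 and 5.98 log2 units. The steepest fall on that side was between the probes at 295391 and 295692 on both WT arrays (-0.96 and -1.40). On the centromere side the running mean dropped under 1 at 5.00 and 3.12 kb from the HMR probe nearest the centromere.

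Probes within a cassette differed among themselves too. On the WT arrays the 22 member probes spanned 1.33 to 8.16 and 1.60 to 7.93, and the 4 VAC17 probes were the lowest on both. The HML probes ran from 6.94 to 8.16 on WT replicate 1 and from 7.13 to 7.93 on replicate 2. The HMR probes ran from 6.21 to 7.71 on replicate 1 and from 6.60 to 7.71 on replicate 2. The probe chr3:293703-293762, in HMR beside HMRA1, was the lowest HMR probe on 6 arrays of other groups, for example 4.24 and 3.77 in pADH-SIR3, and 4.78 in pGPD-SIR2.

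**Figure D2:**
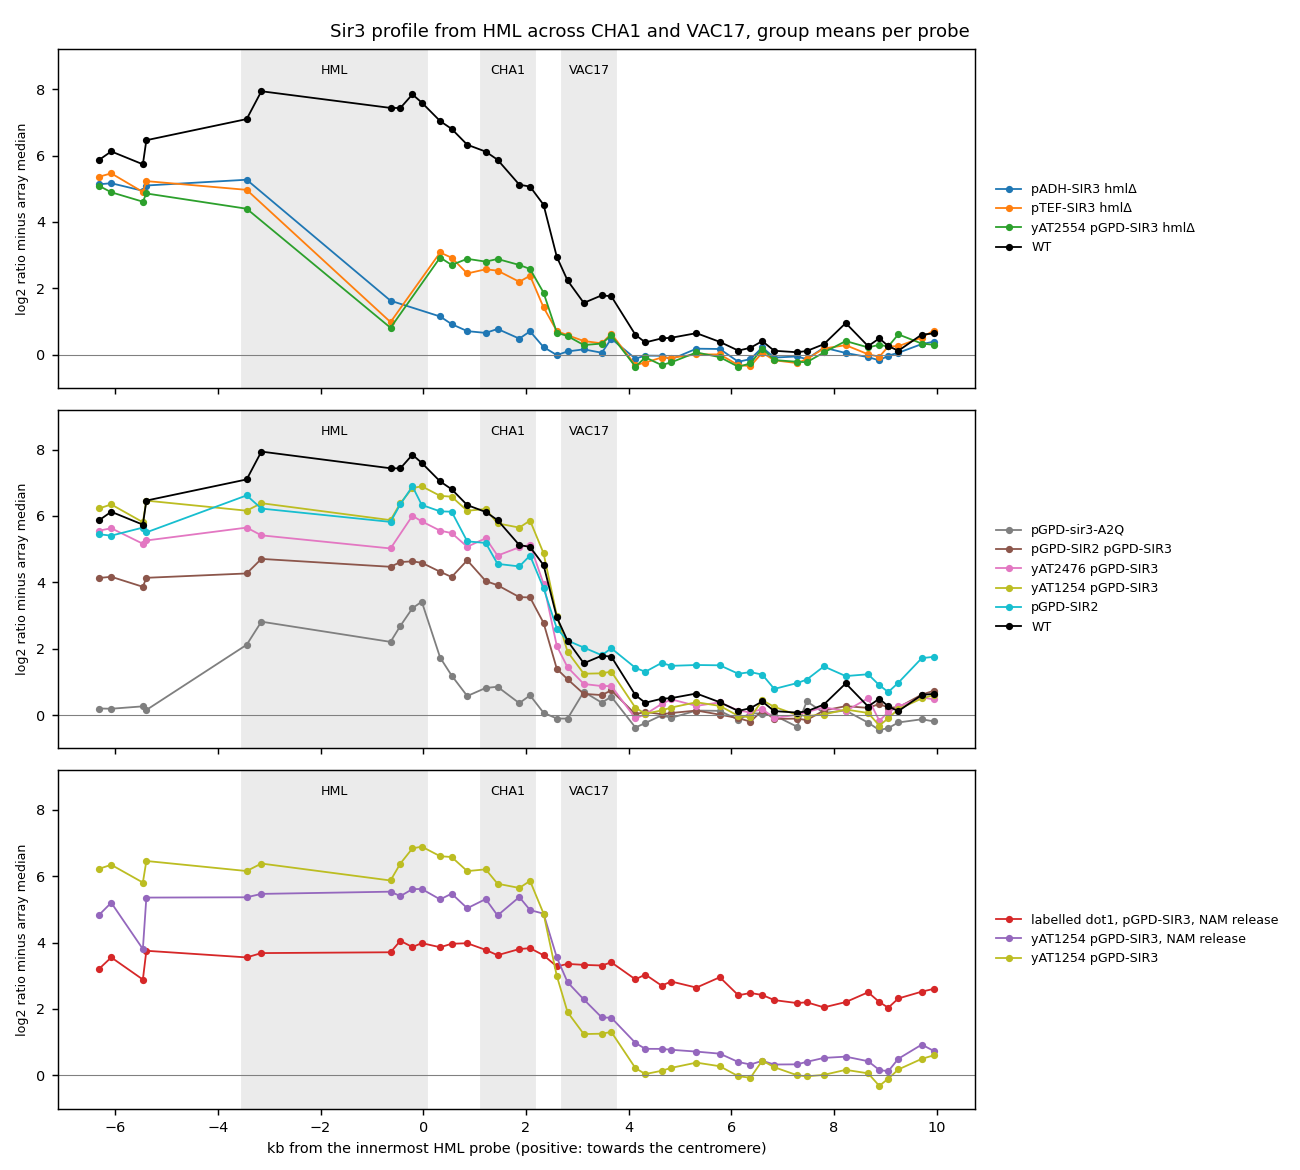
Mean log2 ratio minus array median per probe and group against the distance (kb) from the innermost HML probe, positive towards the centromere, with the extents of the HML, CHA1 and VAC17 probes shaded. The top panel has the HML-deleted strains and WT, the middle one the remaining groups without NAM, and the bottom one the NAM release groups and untreated yAT1254; lines run straight across probes with no ratio. Levels fall between CHA1 and VAC17 in most groups with HML intact, and directly inward of HML in pGPD-sir3-A2Q. On the labelled dot1 arrays they decline gradually, to 2.05 at 7.80 kb.

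The HML-deleted strains lost most of the Sir3 over CHA1, and the amount left differed between promoters. CHA1 was at 0.75 and 0.56 in pADH-SIR3, 2.44 and 2.30 in pTEF-SIR3 and 2.72 in yAT2554, against 5.40 and 5.31 in WT. Every deleted array lay under every WT array by over 2 log2 units, a separation whose share over all features was not counted. CHA1 fell by 4.70 log2 units in pADH-SIR3 against WT (SE 0.27, limma adjusted p = 2.26e-06), and by 2.99 in pTEF-SIR3 (SE 0.27, limma adjusted p = 1.53e-05). In both comparisons it had the lowest difference of all 4215 features tested.

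VAC17 followed at a lower level. It was at 0.17 and 0.23 in pADH-SIR3, 0.50 and 0.48 in pTEF-SIR3 and 0.44 in yAT2554, against 1.81 and 1.86 in WT. The groups did not overlap (the share of all features that do so was not counted), and the deleted arrays were all near the array median. VAC17 fell by 1.64 in pADH-SIR3 (SE 0.15, limma adjusted p = 0.000158) and by 1.34 in pTEF-SIR3 (SE 0.15, limma adjusted p = 6.7e-05).

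HMR, whose sequence is intact in these strains, was lower as well. It was at 5.27 and 4.72 in pADH-SIR3, 5.66 and 4.57 in pTEF-SIR3 and 4.99 in yAT2554, against 7.05 and 7.28 in WT. HMR was lower by 2.17 in pADH-SIR3 (SE 0.45, limma adjusted p = 0.045) and by 2.05 in pTEF-SIR3 (SE 0.45, limma adjusted p = 0.0123). The first call was lost in 9 of 16 fits that each leave out 1 array (highest adjusted p 0.274, without pADH-SIR3 replicate 2). It was also lost in 6 of the other alternatives, among them the replicate block (adjusted p = 0.0652) and scaling by internal spread, where the difference shrank to -0.54. The second call was lost without WT replicate 2 (-1.93, adjusted p = 0.0611), without pTEF-SIR3 replicate 2 (-1.50, adjusted p = 0.165) and with scaling by internal spread (-1.27, adjusted p = 0.337).

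HMRA1, the a1 gene of HMR, had 5.01 and 4.35 in pADH-SIR3, 5.72 and 4.14 in pTEF-SIR3 and 4.88 in yAT2554, against 6.94 and 7.52 in WT. The limma adjusted p was 0.0532 for a difference of -2.55 in pADH-SIR3 and 0.0217 for -2.30 in pTEF-SIR3, where the call was lost in the same 3 alternatives as that of HMR. The 4 features HMR, HMRA1, CHA1 and VAC17 held ranks 1 to 4 from the lowest in both comparisons.

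Of the members, 3 of 4 features were called lower in pADH-SIR3 and 4 of 4 in pTEF-SIR3. Over all features, 0.142% were called lower in pADH-SIR3 and 0.878% in pTEF-SIR3, while 0.830% and 8.16% were called higher. By probe, 14 of 18 member probes were lower in pADH-SIR3 (0.574% of all probes were) and 17 of 18 in pTEF-SIR3 (1.61% of all probes). The 4 HMR probes not called in pADH-SIR3 and the 1 not called in pTEF-SIR3 were the exceptions. Both counts include 2 HML probes, and HML is labelled as deleted in these strains. Lower ratios at those 2 probes are therefore not read as results about Sir3.

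The HML probes still measured in the deleted strains differed from each other. The probe chr3:11184-11243, at the telomere end of the cassette, had 5.47 and 5.07 in pADH-SIR3, 5.09 and 4.85 in pTEF-SIR3 and 4.40 in yAT2554, against 7.07 and 7.13 in WT. The probe chr3:13987-14046 had 1.98 and 1.27 in pADH-SIR3, 0.94 and 1.02 in pTEF-SIR3 and 0.81 in yAT2554, against 6.94 and 7.93 in WT. Its difference was -5.81 in pADH-SIR3 (limma adjusted p = 1.8e-05 over all probes) and -6.46 in pTEF-SIR3 (limma adjusted p = 1.12e-06). HML, HMR and the mating-type locus share stretches of near-identical sequence, so a ratio at such a stretch cannot be assigned to 1 of them, and probe sequences were not used here.

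On the telomere side of the deleted cassette Sir3 was still present. YCL074W, the only gene measured of the 7 listed on that side, averaged 5.60 in pADH-SIR3, 5.88 in pTEF-SIR3 and 5.68 in yAT2554, against 6.96 in WT. Its difference was -1.35 in pADH-SIR3 (limma adjusted p = 0.169) and it was not called in pTEF-SIR3 either (-1.08); yAT2554 was not tested against WT. MRC1, a mediator of the replication checkpoint and the gene after VAC17, averaged -0.14 in pTEF-SIR3, against 0.33 in WT, and was called lower (-0.48, limma adjusted p = 0.00931). That call was lost without pTEF-SIR3 replicate 2 (adjusted p = 0.0733) and on the first-registered arrays alone (adjusted p = 0.194). In pADH-SIR3 MRC1 was not called (-0.35, limma adjusted p = 0.147), and neither was any of the 6 measured of 10 listed genes beyond it in either comparison. On the far side of HMR, by contrast, 4 of 5 measured genes were higher in pADH-SIR3 (median difference 3.77) and 5 of 5 in pTEF-SIR3 (4.30). GIT1 rose by 3.44 in pADH-SIR3 (SE 0.47, limma adjusted p = 0.00266) and by 3.97 in pTEF-SIR3 (limma adjusted p = 0.00013, but 1.21 and adjusted p = 0.059 with quantile normalization). The deletion of HML, the promoter at SIR3 and the differences in background between these strains and WT cannot be told apart in these comparisons.

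Among the HML-deleted strains, which share their background, CHA1 was the 1 of 4 member features called between the TEF and ADH promoters. CHA1 had 2.44 and 2.30 in pTEF-SIR3, against 0.75 and 0.56 in pADH-SIR3. The rise was 1.72 (SE 0.27, limma adjusted p = 0.00232), and all 4 of its probes were called. Among all features 3.75% were called higher and 0% lower, and 3.80% of probes were higher. The call was lost with scaling by internal spread (1.68, adjusted p = 0.173) and with quantile normalization (0.74, adjusted p = 0.782). VAC17 differed by 0.29 (limma adjusted p = 0.533). HMR differed by 0.12 (limma adjusted p = 0.964) and HMRA1 by 0.25 (limma adjusted p = 0.946), and both differences turned negative with either scaling alternative and without pTEF-SIR3 replicate 1 or pADH-SIR3 replicate 2.

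The single yAT2554 array, with the GPD promoter, was not separated from pTEF-SIR3. The differences were 0.35 at CHA1 (SE 0.33), -0.05 at VAC17, -0.13 at HMR and -0.06 at HMRA1. Those of HMR and HMRA1 turned positive without pTEF-SIR3 replicate 1 (0.41 and 0.74), and that of HMRA1 also with quantile normalization (0.14). No feature of 4215 was called by limma (52 had an unadjusted p under 0.05, and at most 3 were called in any alternative), so the percentage called was 0. The spread of a single-array group is taken from the other groups here and below.

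Strains with the same promoter but with or without HML were set against each other next. CHA1 stood at 2.72 in yAT2554, against 5.96 and 5.57 in yAT1254. It fell by 3.04 (SE 0.33, limma adjusted p = 0.00327), the lowest of all 4215 features. The call was lost with scaling by internal spread (-3.49, adjusted p = 0.116) and with quantile normalization (-1.50, adjusted p = 0.443). VAC17 stood at 0.44, against 1.35 and 1.50 (difference -0.99, SE 0.18, limma adjusted p = 0.0729, and called in 4 alternatives with adjusted p 0.0152 to 0.0396). HMR stood at 4.99, against 6.67 and 5.99 (difference -1.34, SE 0.55, limma adjusted p = 0.363).

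CHA1 was 1 of 3 features called in that comparison (0.0712% of all). The others were SIR3 itself, at 2.55 in yAT2554 and 3.84 in yAT1254, and GTT1, a glutathione transferase gene, at 4.32 in yAT2554 and 1.95 in yAT1254 (both limma adjusted p = 0.0422, and each call lost in 12 of 25 alternatives). By probe, 6 of 18 member probes were lower (4 in CHA1, 1 in HML and 1 in VAC17), where 0.112% of all probes were. The HML probe lies in the cassette labelled as deleted in yAT2554, so it is not read as a result about Sir3. The strains also differ in the RAP1 fusion, the ppr1 deletion and the marked telomere. The yAT2476 array, which has HML but lacks the ppr1, adh4 and ade2 changes, had CHA1 at 5.00 and VAC17 at 1.03, both under the 2 yAT1254 arrays. None of its 5 member features was called against yAT1254 (adjusted p 0.193 to 0.316), where 5.10% of all features were. HML was at 5.58 (difference -0.85), HMR at 5.30 (-1.03) and CHA1 differed by -0.77, and quantile normalization turned the HML and CHA1 differences positive (0.22 and 0.038).

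In the yAT1254 background, no member was called with wild-type SIR3 under GPD. HML had 6.57 and 6.29 in yAT1254, against 7.50 and 7.67 in WT. HMR had 6.67 and 5.99 in yAT1254, against 7.05 and 7.28 in WT, and VAC17 had 1.35 and 1.50, against 1.81 and 1.86. CHA1 had 5.96 and 5.57 in yAT1254, against 5.40 and 5.31 in WT. CHA1 alone was on the higher side. How many of all features have groups that do not overlap was not counted, here or in the other comparisons. Such separation is therefore given as description only.

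None of the 5 features passed, while 7.76% of all features did. The HML difference was -1.15 (SE 0.39, limma adjusted p = 0.112), the lowest of all 4216 features, and it was called in 4 alternatives (adjusted p 0.00148 to 0.0366). The differences were -0.41 at VAC17 (limma adjusted p = 0.127), -0.84 at HMR (0.324), -0.74 at HMRA1 (0.503) and +0.41 at CHA1 (0.438). Without yAT1254 replicate 2 the HMR difference was -0.50 and that of HMRA1 -0.38 (-0.45 without WT replicate 2), and without yAT1254 replicate 1 that of CHA1 was 0.21. Scaling by internal spread turned HMR and HMRA1 positive (0.28 and 0.41), and quantile normalization turned CHA1 negative (-1.33) and called VAC17 (-2.25, adjusted p = 9.19e-05) and HMR (-1.12, adjusted p = 0.011). VAC17 was also called without either labelled dot1 array (adjusted p = 0.0374).

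The neighbours of HMR differed by more than the members did, and those of HML by less. All 5 measured genes on the telomere side of HMR were higher in yAT1254, by a median of 5.08, and GIT1 rose by 4.74 (limma adjusted p = 2.85e-05, but 1.23 and adjusted p = 0.0544 with quantile normalization). On the centromere side of HMR 2 of 3 measured genes rose, with OCA4 up by 3.00 (limma adjusted p = 3.17e-06, but 0.46 and adjusted p = 0.0964 with quantile normalization). Around HML, YCL074W differed by -0.18 and MRC1 by -0.17, neither called, and 0 of the 6 measured genes beyond were called. The running mean inward of HML dropped under 1 at 3.48 kb on both yAT1254 arrays, against 3.66 kb on both WT arrays. Inward of HMR it did so at 7.33 and 7.48 kb in yAT1254, against 5.00 and 3.12 kb in WT.

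**Figure D3:**
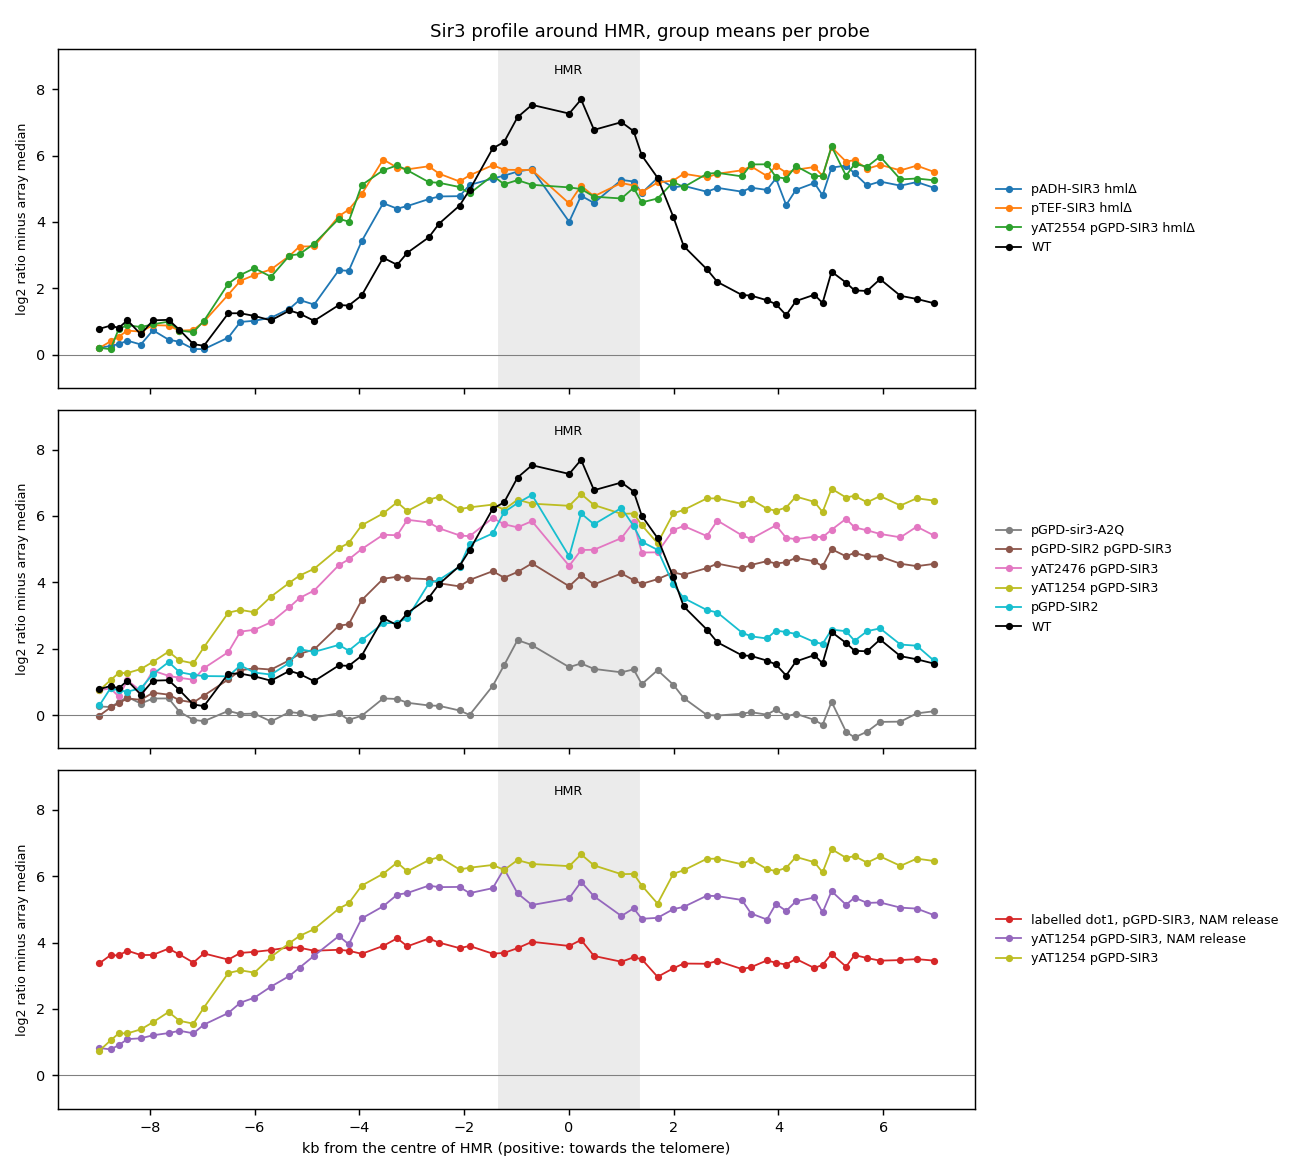
Mean log2 ratio minus array median per probe and group against the distance (kb) from the centre of HMR, positive towards the telomere, with the extent of the HMR probes shaded; panels and groups are as in the HML profile. In WT and pGPD-SIR2 HMR is a peak that falls off on both sides, and in the groups with SIR3 under ADH, TEF or GPD the level stays high on the telomere side, while pGPD-sir3-A2Q is low throughout.

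Measured within each array, HMR stood out from its telomere-side neighbour only where SIR3 had its own promoter or was the A2Q mutant. HMR minus GIT1 was 1.54 and 1.65 in pGPD-sir3-A2Q, 3.55 in pGPD-SIR2, and 4.99 and 5.98 in WT. On the other 14 arrays it lay between -0.59 and 0.62. These differences need no centring between arrays.

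**Figure D4:**
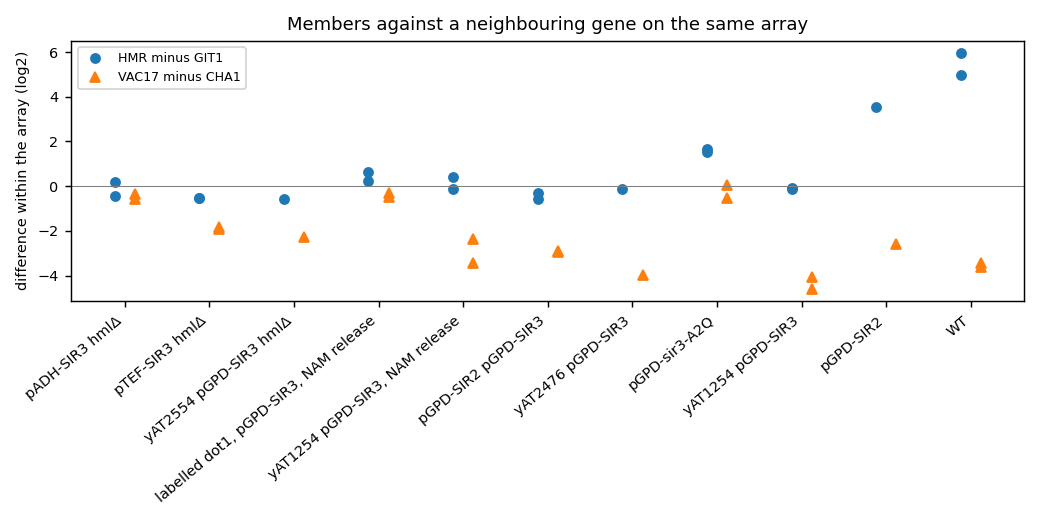
Differences within each array (log2): circles are HMR minus GIT1, its telomere-side neighbour, and triangles are VAC17 minus CHA1, for the 11 groups with 1 symbol per array. HMR exceeds GIT1 by more than 1 only in pGPD-sir3-A2Q, pGPD-SIR2 and WT, and VAC17 comes within 0.6 of CHA1 only in pADH-SIR3, pGPD-sir3-A2Q and on the labelled dot1 arrays.

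The A2Q point mutant changes the amino terminus of Sir3, whose acetylation is needed for silencing. Sir3 remained at both cassettes in this strain, at a low level. HML had 2.67 and 2.84 in pGPD-sir3-A2Q, against 7.50 and 7.67 in WT, and against 6.57 and 6.29 in yAT1254. It was nevertheless above 99.95% and 99.96% of the probes of the A2Q arrays. HMR had 1.58 and 1.68 in pGPD-sir3-A2Q, against 7.05 and 7.28 in WT, and against 6.67 and 5.99 in yAT1254. HML thus exceeded HMR by about 1 log2 unit on both A2Q arrays, and the probes nearest the inner end of HML were the highest (3.31 and 3.52 at chr3:14595-14654).

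Outside the cassette the signal fell steeply and then tapered. CHA1 had 0.32 and 0.88 in pGPD-sir3-A2Q, against 5.40 and 5.31 in WT, and VAC17 had 0.39 and 0.37, against 1.81 and 1.86. The steepest fall was from the last HML probe to the next one inward, by 1.72 and 1.65, and the running mean was under 1 at 0.55 and 0.86 kb. CHA1 was still above 87.5% and 97.84% of the probes of the A2Q arrays. YCL074W, on the telomere side, averaged 0.47 in pGPD-sir3-A2Q, against 6.96 in WT (difference -6.49, SE 0.42, limma adjusted p = 2.74e-06).

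All 5 member features were lower against WT, where 1.26% of all features were. The differences were -4.83 at HML (SE 0.39, limma adjusted p = 9.7e-05), -5.54 at HMR (SE 0.45, adjusted p = 2.66e-05), -5.76 at HMRA1 (SE 0.56, adjusted p = 0.000108), -4.75 at CHA1 (SE 0.27, adjusted p = 1.98e-06) and -1.46 at VAC17 (SE 0.15, adjusted p = 0.000145). By probe, 21 of 22 were lower (3.08% of all probes). Under quantile normalization, which gives every array the same distribution of values, HML, HMR and HMRA1 lost the call (-0.091, -0.44 and -0.55) while CHA1 and VAC17 kept it. The calls over all features, 25 higher and 53 lower, became 493 higher and 184 lower under that setting and 33 higher and 28 lower with scaling by internal spread.

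Against yAT1254, the strain with the same promoter and background, all 5 were again lower, where 8.18% of all features were, and 20 of 22 probes (8.50% of all probes). CHA1 fell by 5.16 (limma adjusted p = 1.07e-07) and VAC17 by 1.05 (adjusted p = 0.000301). HML fell by 3.68 (adjusted p = 7.81e-05), HMR by 4.70 (adjusted p = 1.06e-05) and HMRA1 by 5.02 (adjusted p = 3.61e-05), and these 3 turned positive under quantile normalization (1.00, 0.68 and 0.30), which moved the median of all features by 0.109. VAC17 was not called there (-0.21, adjusted p = 0.51). The 2 comparisons share the A2Q arrays. On the telomere side of HMR 5 of 5 measured genes fell against yAT1254 (median -6.00) and 1 of 5 against WT, AAD3 (-2.66, a call lost in 3 of 25 alternatives).

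With GPD-driven SIR2, the gene of the histone deacetylase of the complex, and native SIR3, the members kept high levels. HML was at 6.38 on the single pGPD-SIR2 array, against 7.50 and 7.67 in WT. HMR was at 5.94, against 7.05 and 7.28. CHA1 was at 4.61, against 5.40 and 5.31, and VAC17 at 2.02, against 1.81 and 1.86. The first 3 lay below both WT arrays and VAC17 above both.

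None of the 5 features was called, where 2.32% of all features were. The limma adjusted p was 0.178 for HML (-1.21), 0.224 for HMR (-1.23), 0.281 for HMRA1 (-1.32), 0.22 for CHA1 (-0.74) and 0.591 for VAC17 (+0.19). The CHA1 difference was 0.0068 with scaling by internal spread, and that of VAC17 turned negative with quantile normalization (-0.23). Past VAC17 the profile reached further. The running mean dropped under 1 at 6.60 kb from HML, against 3.66 kb on both WT arrays. The pGPD-SIR2 strain differs from WT in background as well as in SIR2, and these cannot be told apart in any of these values. MRC1 was at 1.29 in pGPD-SIR2, against 0.30 and 0.36 in WT (difference 0.95, SE 0.12, limma adjusted p = 0.0036); it was singled out after its values were seen, and the call was lost on the first-registered arrays alone (adjusted p = 0.0772).

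With SIR2 and SIR3 both under GPD, every member was lower than in yAT1254, which has SIR3 alone under GPD. HML had 4.87 and 4.20 in pGPD-SIR2 pGPD-SIR3, against 6.57 and 6.29 in yAT1254. HMR had 4.52 and 3.83, against 6.67 and 5.99. CHA1 had 3.76 and 3.58, against 5.96 and 5.57, and VAC17 had 0.88 and 0.65, against 1.35 and 1.50. At each of these loci both arrays lay below both yAT1254 arrays. On the single yAT2476 array, with SIR3 alone under GPD, HML was at 5.58, HMR at 5.30, CHA1 at 5.00 and VAC17 at 1.03. These values lay above both pGPD-SIR2 pGPD-SIR3 arrays and below both yAT1254 arrays. In HML-deleted yAT2554, CHA1 (2.72) and VAC17 (0.44) lay below both pGPD-SIR2 pGPD-SIR3 arrays, and HMR (4.99) above both. Neither strain was tested against pGPD-SIR2 pGPD-SIR3. The share of all features with such separations was not counted.

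All 5 features were called lower, where 6.71% of all features were, and 19 of 22 probes (4.14% of all probes). CHA1 fell by 2.09 (SE 0.27, limma adjusted p = 0.000484), HML by 1.90 (SE 0.39, adjusted p = 0.0103) and HMR by 2.15 (SE 0.45, adjusted p = 0.00908). HMRA1 fell by 2.42 (adjusted p = 0.0134) and VAC17 by 0.66 (SE 0.15, adjusted p = 0.0109). The CHA1 call held in every fit that left out 1 array. The HML, HMR and HMRA1 calls were lost without yAT1254 replicate 1 or pGPD-SIR2 pGPD-SIR3 replicate 2, and that of VAC17 without yAT1254 replicate 2 or the same replicate 2. All but HMRA1 were lost with quantile normalization (-0.10 at HML, -0.60 at HMR, -0.63 at CHA1 and -0.60 at VAC17). HML also lost it with scaling by internal spread and with the registration batch as a block, and VAC17 on the first-registered arrays alone (adjusted p 0.0552 to 0.0725). The 2 strains differ in background as well as in SIR2, and these cannot be told apart.

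Nicotinamide inhibits the deacetylase activity of Sir2, and the release groups were sampled after its removal. HML had 4.86 and 6.18 in yAT1254 after release, against 6.57 and 6.29 in untreated yAT1254. HMR had 4.61 and 5.97, against 6.67 and 5.99, and CHA1 had 4.65 and 5.46, against 5.96 and 5.57. At these 3 loci both release arrays were below both untreated ones, the first by more than the second. At HMR the second release array was barely below the second untreated one (5.97 against 5.99). VAC17 had 2.27 and 2.02 after release, against 1.35 and 1.50, so there both release arrays were above both untreated ones. How many of all features separate in this way was not counted, so the separation is description only.

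VAC17 rose by 0.72 (SE 0.15, limma adjusted p = 0.015), where 3.65% of all features were called higher and 4.93% lower. That call was lost without NAM release replicate 1 (0.59, adjusted p = 0.151), without yAT1254 replicate 1 (0.64, adjusted p = 0.0995) or replicate 2 (0.79, adjusted p = 0.0546), and with the registration batch as a block (0.78, adjusted p = 0.0515). All release arrays were registered later than the untreated arrays, so no value within a batch can be had. The differences were -0.91 at HML (limma adjusted p = 0.17), -1.04 at HMR (0.17), -0.88 at HMRA1 (0.349) and -0.70 at CHA1 (0.124), and these 4 turned positive under quantile normalization. Without NAM release replicate 1 they shrank to -0.25 at HML, -0.36 at HMR, -0.085 at HMRA1 and -0.30 at CHA1, and without replicate 2 they were -1.57, -1.72, -1.67 and -1.11. HMRA1 also turned positive with the batch block (0.14), and HML was called without NAM release replicate 2 (adjusted p = 0.0452). By probe, 2 of the 4 VAC17 probes were higher and 1 of the 8 HMR probes was lower, where 3.36% and 3.22% of all probes were. The running mean inward of HML dropped under 1 at 4.13 kb on both release arrays, against 3.48 kb on both untreated arrays.

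The arrays labelled dot1 had a flat profile over the members. Dot1 is the histone H3 lysine methyltransferase whose mark weakens Sir3 binding. HML had 3.35 and 4.17 on the labelled dot1 arrays, against 4.86 and 6.18 in yAT1254 after the same release. HMR had 3.39 and 4.16, against 4.61 and 5.97, and CHA1 had 3.41 and 4.10, against 4.65 and 5.46. VAC17 had 3.08 and 3.62, against 2.27 and 2.02. HML, HMR and CHA1 were lower and VAC17 was higher.

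On each labelled dot1 array the members were within 1 log2 unit of each other. The measured member probes spanned 2.85 to 3.80 (21 probes) and 3.54 to 4.47 (22 probes) there, against 1.77 to 5.08 and 1.51 to 6.67 on the yAT1254 release arrays. VAC17 minus CHA1 was -0.32 and -0.48 on the labelled dot1 arrays, against -2.38 and -3.45 on the yAT1254 release arrays. The running mean inward of HML stayed over 1 to the end of the 40 kb searched, and that inward of HMR dropped under 1 at 13.27 and 14.30 kb, against 7.16 kb on both yAT1254 release arrays.

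VAC17 rose by 1.21 (SE 0.15, limma adjusted p = 2.26e-05), but with arrays scaled by their internal spread, which was largest on the labelled dot1 arrays, the difference was -0.38 (adjusted p = 0.024). The rank on the array does not use that scaling, but it depends on how many other probes of the array are high. VAC17 was above 99.33% and 99.26% of probes on the labelled dot1 arrays, against 97.93% and 97.44% on the yAT1254 release arrays. By the same measure CHA1 was at 99.80% and 99.83% against 99.64% and 99.45%. HMR was at 99.79% and 99.87% against 99.59% and 99.82%. HML was at 99.74% and 99.88% against 99.85% and 99.93%. The ranks of CHA1, HMR and HML are all close to the top, so they cannot show whether these loci were lower. HML fell by 1.76 (SE 0.39, limma adjusted p = 0.00356), though by only 0.18 with quantile normalization (adjusted p = 0.569) and by 1.10 without yAT1254 NAM release replicate 2, where the call held. CHA1 fell by 1.31 (SE 0.27, limma adjusted p = 0.00164) and HMR by 1.51 (SE 0.45, limma adjusted p = 0.0146), and both turned positive with quantile normalization (0.53 and 0.25). HMRA1 fell by 1.77 (limma adjusted p = 0.0187). The HMR and HMRA1 calls were lost without yAT1254 NAM release replicate 2 (-0.83 at HMR, adjusted p = 0.176) and without labelled dot1 replicate 1 (-1.13, adjusted p = 0.122). All 4 arrays were registered together.

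These calls stand against a large background, since 51.6% of all features were called in this comparison, 27.6% higher and 24.0% lower. All 4 VAC17 probes were higher and 15 of the other 18 member probes lower, where 20.5% and 16.7% of all probes were. The genes past VAC17 were higher too. All 6 measured of the 10 genes listed beyond MRC1 rose, by a median of 2.05, and MRC1 had 2.49 and 2.70 on the labelled dot1 arrays, against 0.59 and 0.52 in yAT1254 after release (difference 2.04, SE 0.10, limma adjusted p = 1.13e-08). On the centromere side of HMR 3 of 3 measured genes rose (median 1.50), though the OCA4 call (0.54, limma adjusted p = 0.0487) was lost in 14 of 24 alternatives. On the telomere side of HMR 4 of 5 fell (median -1.39), with GIT1 and AAD3 each losing the call in 3 of 24.

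**Figure D5:**
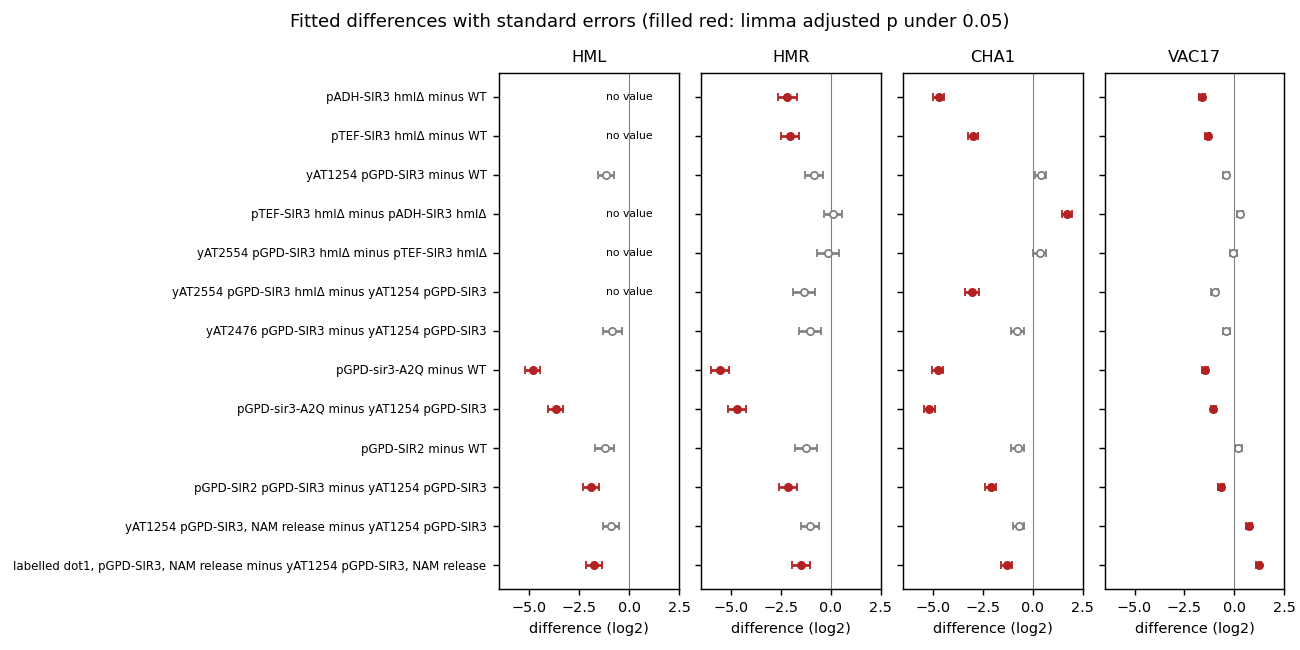
Fitted differences (log2) with standard errors at HML, HMR, CHA1 and VAC17 in the 13 comparisons, each as the first-named group minus the second; filled red points have a limma adjusted p under 0.05. In the 3 comparisons of an HML-deleted strain with an HML-intact one CHA1 is the furthest left of the loci shown, in the 2 A2Q comparisons all 4 lie left of 0, and VAC17 lies right of 0 with a filled point only in the 2 comparisons with release from nicotinamide.

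Ordered by group mean, HML ran from 7.58 in WT over 6.43 in yAT1254, 6.38 in pGPD-SIR2, 5.58 in yAT2476, 5.52 after NAM release, 4.53 in pGPD-SIR2 pGPD-SIR3 and 3.76 on the labelled dot1 arrays to 2.75 in pGPD-sir3-A2Q. HMR ran from 7.17 in WT to 1.63 in pGPD-sir3-A2Q in the same order of these 8 groups, with the 3 HML-deleted groups between 4.99 and 5.12. Neighbours in the HML order whose arrays overlapped were yAT1254 with pGPD-SIR2, yAT2476 with NAM release, and NAM release with pGPD-SIR2 pGPD-SIR3. On no array with HML intact was HMR more than 0.10 over HML or more than 1.16 under it. CHA1 had another order, from 5.76 in yAT1254 and 5.35 in WT to 0.65 in pADH-SIR3 and 0.60 in pGPD-sir3-A2Q, the last pair overlapping. VAC17 had another again, from 3.35 on the labelled dot1 arrays, 2.14 after NAM release, 2.02 in pGPD-SIR2 and 1.84 in WT to 0.20 in pADH-SIR3.

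Genes with a similar pattern were sought by Pearson's r over the 11 group means, as a description, since these means share arrays and scaling. For VAC17 the closest were KAR4 (0.94), BUD5 (0.90) and MRC1 (0.90), all on chromosome 3. For HMRA1 they were YCL074W (0.94), PHO92 (0.86) and IMD2 (0.85). For CHA1 the likeness was weaker, with MUP3 (0.77), TFB6 (0.70) and YKR104W (0.63), whose levels were all under 1.2.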

How the data were processed

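Sir3 ChIP-chip arrays were read from the deposited per-sample files. Per the file headers they hold an unfilled ratio, a rescaled and filled ratio, and a z score that was not used. Per the labels the ratio is precipitated DNA (Cy5) over whole cell extract (Cy3), both amplified by random primer extension and PCR. For scanner, background correction, spot filter and genome build, the sources used here give nothing. The authors' deposited series table equals the rescaled ratio in 787683 of 787683 cells (relative tolerance 1e-06). Some of its columns hold values at or below 0. As an alternative, the rescaled and filled ratio was log2-transformed and centred like the main one, with those values left out. The unfilled ratio was used for the main results. It holds values at or below 0 too, at most 7 on an array, and these were left out.

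Ratios were log2-transformed and centred on the median of each array, with no loess or quantile step. A gene's value is the mean of its probes at least 100 bp inside the coding region (RefSeq R64 gene coordinates, as the selection rule uses) that were measured on every array, with at least 2 such probes. HML and HMR are means over their probes measured on every array that has the cassette, 5 of 6 and 7 of 8, and CHA1 rests on 3 of its 4 probes. The 4214 genes and the cassettes (4216 features) were tested with limma 3.58.1 (R 4.3.3) in 1 fit over all 19 arrays, in 13 comparisons, two-sided, with Benjamini-Hochberg adjustment within each comparison and a threshold of 0.05. Comparisons that include an HML-deleted group have no HML value and tested 4215 features. The same model was fitted to all probes. The fit was first tested on simulated data with known changes. The number of arrays limits the precision.

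Member genes are named whatever their values, neighbours come from lists by position, and MRC1, GTT1, SIR3 and the probe beside the mating-type locus were singled out after their values were seen. The members and lists were chosen with earlier results of these data known. Alternatives covered array scaling, the filled ratio, registration batch (12 arrays with earlier and 7 with later record numbers), slide, replicate block, probe filters and leaving out each replicate. Slides were read from file names. The 7 later arrays have no known slide and were entered together as a single block, so the slide block partly repeats the registration batch.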

Additional observations from a re-analysis of the deposited data

How the results depend on the processing

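The 60 member results were recomputed in 1490 alternative values, of which 1388 kept direction and side of the threshold, 54 lost the call, 19 gained it and 29 changed sign. Many of these fits leave out an array of a group not in the comparison. Such a fit keeps the difference and can change only its error and adjusted p, so the counts do not measure robustness. Probe margin and minimum probe number changed none, but these settings do not alter the probes used for HML and HMR. Restricting to probes of unique sequence was not run, because no genome was used here. The number of arrays, and probe gaps inside HML, limit what can be seen. The cause of a changed call was not tested.

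Array scaling moved most. Scaling by internal spread gave, in pADH-SIR3 minus WT, HMR -0.54; in pTEF-SIR3 minus WT, HMR -1.27; in yAT1254 minus WT, HMR 0.28 and HMRA1 0.41; in pTEF-SIR3 minus pADH-SIR3, HMR -0.72, HMRA1 -0.53 and CHA1 1.68; in yAT2554 minus yAT1254, CHA1 -3.49 and VAC17 -1.10; in pGPD-SIR2 minus WT, CHA1 0.0068; in pGPD-SIR2 pGPD-SIR3 minus yAT1254, HML -2.32; and on the labelled dot1 arrays, VAC17 -0.38.

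Quantile normalization gave HMR -0.64 in pADH-SIR3 minus WT. In yAT1254 minus WT it gave HML -1.09, HMR -1.12, CHA1 -1.33 and VAC17 -2.25. In pTEF-SIR3 minus pADH-SIR3 it gave HMR -1.12, HMRA1 -1.05 and CHA1 0.74, and in yAT2554 it gave HMRA1 0.14 against pTEF-SIR3 and CHA1 -1.50 against yAT1254. In yAT2476 it gave HML 0.22 and CHA1 0.038. For pGPD-sir3-A2Q it gave HML -0.091 and HMR -0.44 against WT, and HML 1.00, HMR 0.68, HMRA1 0.30 and VAC17 -0.21 against yAT1254. In pGPD-SIR2 VAC17 was -0.23. In pGPD-SIR2 pGPD-SIR3 it gave HML -0.10, HMR -0.60, CHA1 -0.63 and VAC17 -0.60. After NAM release it gave HML 0.71, HMR 0.60, HMRA1 0.83 and CHA1 1.05, and on the labelled dot1 arrays HML -0.18, HMR 0.25 and CHA1 0.53.

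HMR in pADH-SIR3 minus WT also lost its call with the filled ratio (-2.03), the registration batch (-1.78) or slide (-1.98) as a block, and the replicate block (-2.17, adjusted p = 0.0652), which changed no other member call. Same-numbered arrays of 2 groups did not deviate together (correlations -0.27 to 0.173 over 10 pairs of groups), so the numbers were not taken as pairs. The registration batch block also gave HML -1.56 in pGPD-SIR2 pGPD-SIR3, and HMRA1 0.14 and VAC17 0.78 after NAM release. The first-registered arrays alone gave HML -1.15 in yAT1254 minus WT, VAC17 -0.99 in yAT2554 minus yAT1254 and VAC17 -0.55 in pGPD-SIR2 pGPD-SIR3.

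Leaving out 1 array at a time gave these ranges for results whose call or sign changed, or that moved by over 1.5 times. In pADH-SIR3 minus WT HMR ranged from -2.45 to -1.90 and HMRA1 from -2.88 to -2.22 (called in 5 such fits), and in pTEF-SIR3 minus WT HMR from -2.59 to -1.50 and HMRA1 from -3.09 to -1.51. In yAT1254 minus WT HML ranged from -1.30 to -1.01 and VAC17 from -0.48 to -0.33, and with no change of call HMR from -1.18 to -0.50, HMRA1 from -1.10 to -0.38 and CHA1 from 0.21 to 0.60. In pTEF-SIR3 minus pADH-SIR3 HMR ranged from -0.42 to 0.67 and HMRA1 from -0.54 to 1.04. In yAT2554 minus pTEF-SIR3 HMR ranged from -0.68 to 0.41 and HMRA1 from -0.85 to 0.74, and against yAT1254 VAC17 from -1.06 to -0.91. In pGPD-SIR2 pGPD-SIR3 HML ranged from -2.23 to -1.56, HMR from -2.49 to -1.81, HMRA1 from -2.82 to -2.01 and VAC17 from -0.77 to -0.55. After NAM release HML ranged from -1.57 to -0.25 and VAC17 from 0.59 to 0.84, and with no change of call HMR from -1.72 to -0.36, HMRA1 from -1.67 to -0.085 and CHA1 from -1.11 to -0.30. On the labelled dot1 arrays HMR ranged from -2.19 to -0.83 and HMRA1 from -2.57 to -0.98, and HML, which kept its call, from -2.42 to -1.10.

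The number of features called varied by over 1.5 times in every comparison: from 23 to 298 in pADH-SIR3 minus WT (41 as reported), 143 to 739 in pTEF-SIR3 (381), 160 to 834 in yAT1254 (327), 57 to 212 in pTEF-SIR3 minus pADH-SIR3 (158), 0 to 3 in yAT2554 minus pTEF-SIR3 (0), 0 to 8 in yAT2554 minus yAT1254 (3) and 55 to 402 in yAT2476 (215). It was 19 to 709 in pGPD-sir3-A2Q minus WT (78) and 243 to 970 against yAT1254 (402), 0 to 303 in pGPD-SIR2 (98), 128 to 889 in pGPD-SIR2 pGPD-SIR3 (613), 16 to 620 after NAM release (362) and 1137 to 2611 on the labelled dot1 arrays (2175).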

Other observations

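A probe beside the mating-type locus MAT, chr3:201133-201192, had its highest ratios in the groups with native SIR3, although MAT is not a silenced cassette. It lies in the dubious gene YCR041W. It had 4.61 in pGPD-SIR2 and 4.49 and 4.73 in WT. With SIR3 under other promoters it was lower on every array: 1.73 and 1.30 in pADH-SIR3, 1.25 and 1.28 in pTEF-SIR3, 1.12 in yAT2554, and 2.22 and 3.90 in yAT1254. The remaining groups were at 2.31 and 1.83 in pGPD-SIR2 pGPD-SIR3, 3.50 in yAT2476, 1.31 and 1.09 in pGPD-sir3-A2Q, 3.33 and 4.07 after NAM release, and 2.07 and 2.27 on the labelled dot1 arrays. The difference from WT was -3.10 in pADH-SIR3 (limma adjusted p = 0.000765 over all probes), -3.34 in pTEF-SIR3 (5e-05), -1.55 in yAT1254 (0.0252) and -3.41 in pGPD-sir3-A2Q (0.000133). On the labelled dot1 arrays it was -1.53 against yAT1254 after release (limma adjusted p = 0.00788). MAT shares sequence with HML and HMR, and whether this probe reads one of them was not tested.

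BUD5, the gene on the other side of MAT and a regulator of bud-site choice, was called lower than in WT in pADH-SIR3 (-0.66, limma adjusted p = 0.0126), pTEF-SIR3 (-0.67, 0.00183), yAT1254 (-0.42, 0.0358) and pGPD-sir3-A2Q (-0.50, 0.0448), comparisons that share the WT arrays. These calls were lost in 5, 1, 11 and 19 of 25 alternatives. It was higher on the labelled dot1 arrays than in yAT1254 after release, by 0.62, a call lost in 2 of 24 alternatives, with quantile normalization (0.17, adjusted p = 0.56) and with scaling by internal spread (0.20, adjusted p = 0.229).

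At the 4 HML probes with no measured ratio in the deleted strains, the authors' filled values lay between 1.13 and 4.59 on the log2 scale after centring, so the filled column alone would show Sir3 signal over a deleted cassette.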
